A study of Homo sapiens with 10 samples.

Results

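The replication-dependent histone genes of CCRF-CEM cells were followed as the accessible regions that lie in 5 intervals of hg19 known to hold their clusters. These are chr6:26015000-26290000, chr6:27090000-27120000 and chr6:27770000-27870000, here called the first, the second and the third chromosome 6 interval, and on chromosome 1 the stretch from 149.78 to 149.86 Mb and chr1:228610000-228650000. Every peak of the 10 deposited lists in these intervals was taken, with no use of its value, and overlapping peaks were merged across lists. This gave 45 regions of the 35505 in the whole series, and they were set against the other 5268 regions of chromosomes 1 and 6. No hg19 annotation was used, so a region is named by its coordinates and not by a gene, and genes of other kinds that lie in the intervals are counted with the clusters.

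Replication-dependent histone genes encode the core histones H2A, H2B, H3 and H4 and the linker histone H1, which package newly made DNA. They lie in dense clusters, are short and without introns, and are transcribed mainly in S phase from a nuclear compartment called the histone locus body. Their supply is coupled to replication: when forks stall, histone mRNA is normally degraded through its stem-loop end. Prexasertib inhibits CHK1, the checkpoint kinase that restrains origin firing and protects stalled forks, and camptothecin traps topoisomerase I on DNA, so both drugs put replication under stress. SLFN11 is a protein recruited to stressed forks.

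The control elements of these genes sit just before their starts. For reference, 1 promoter of each histone class is shown from RefSeq (GRCh38.p14), as the 150 bases before the annotated start, read 5′ to 3′ on the gene's strand. Capitals mark 3 motifs searched on both strands: the octamer ATTTGCAT, bound by OCT1, the CCAAT box as CCAAT or ATTGG, bound by NF-Y, and the TATA box TATAAA, which positions the start.
H1-1: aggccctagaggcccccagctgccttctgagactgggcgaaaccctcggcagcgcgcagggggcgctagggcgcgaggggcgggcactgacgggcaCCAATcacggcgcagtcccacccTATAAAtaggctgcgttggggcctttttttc
H2AC4: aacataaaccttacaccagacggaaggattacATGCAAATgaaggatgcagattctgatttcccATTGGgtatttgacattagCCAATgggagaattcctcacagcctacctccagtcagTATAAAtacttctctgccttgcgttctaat
H2BC3: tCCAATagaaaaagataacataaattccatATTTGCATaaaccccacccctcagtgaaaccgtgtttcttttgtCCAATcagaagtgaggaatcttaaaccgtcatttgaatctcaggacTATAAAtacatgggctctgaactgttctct
H3C1: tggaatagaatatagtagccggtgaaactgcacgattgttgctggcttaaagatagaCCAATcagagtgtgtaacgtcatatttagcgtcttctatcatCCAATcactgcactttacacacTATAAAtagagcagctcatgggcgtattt
H4C2: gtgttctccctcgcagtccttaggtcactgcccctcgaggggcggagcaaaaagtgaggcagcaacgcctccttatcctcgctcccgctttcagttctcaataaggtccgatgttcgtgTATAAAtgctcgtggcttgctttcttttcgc
The 5 differ in their elements although their genes lie in the same clusters. H2AC4 and H2BC3 hold the octamer, and H4C2 holds a TATA box and neither of the other motifs. Of 68 histone genes of these classes on chromosomes 1 and 6, 63 had promoter entries, 67 in all. The octamer was found in 31.3% of the 67 entries, in 15 of the 20 H2B entries and in no H1 or H4 entry, against 0.988% of all 35116 promoters of the same length. The CCAAT box was found in 86.6%, but in only 3 of 12 H4 entries, against 23.5% of all promoters. The TATA box was found in 56.7% against 6.71%. These are matches of letters in a window. The promoters are of another build than the peaks, were not placed on the regions below, and no value of a region was compared between promoters with and without a motif. The chromosome 1 cluster also holds near-identical gene copies: the 300-base promoters of H4C14 and H4C15 were identical over all 300 bases, and those of H2AC18 and H2AC19 shared a run of 299. How reads of such copies were placed is not stated in the sources used.

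The data are 10 ATAC-seq libraries, 1 for each group; the assay uses a transposase that cuts open chromatin. The cells were CCRF-CEM, a human T lymphoblast leukemia line, either parental, which the labels describe as wild type and positive for SLFN11, or with SLFN11 knocked out. The labels do not say how the knockout was made or whether it is 1 clone, and a difference between the lines cannot be told apart from other differences between them. Each line received DMSO for a time the labels do not give, prexasertib at 100 nM for 2, 4 or 6 h, or camptothecin at 100 nM for 4 h. With 1 library per group there is no replicate spread and no test: each comparison describes 2 libraries, and those within a genotype share 1 DMSO library. Intervals of medians and shares are at 95% confidence and cover only the spread over regions, those of pileups only counting error, and neighbouring regions of a cluster are not replicates. The series record calls the raw reads truncated for 1 library, the parental one given prexasertib for 4 h.

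The lists held between 19468 and 31526 summits. Height is the pileup at the highest summit of a region, recovered from the deposited fold and p-value, in units of that library's genome-wide background pileup. That background ranged from 1.33 in the parental 4 h library to 2.1 in the knockout 2 h library. Local background is the background the peak caller used at the same summit, in units of the genome-wide one. It follows how dense the reads are around the summit, and these can include the reads of the peak itself. Pileups at the histone summits ran from 13 to 151, and a pileup of 13 has an exact Poisson interval of 6.92 to 22.2, one of 32, the median with DMSO in parental cells, has 21.9 to 45.2, and one of 151 has 128 to 177. A single region therefore shows only large differences, and the statements below rest mainly on the regions as a group.

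The histone clusters were densely accessible, and most of their regions were called in every library. They held 85.7 regions per Mb, against 12.6 per Mb between the first and last region of the rest of chromosomes 1 and 6. Of the 45 regions, 25 lay in the first chromosome 6 interval, 3 in the second, 11 in the third and 6 in the larger chromosome 1 interval, where 1 crosses the edge. The chromosome 1 interval at chr1:228610000-228650000 held no peak in any of the 10 lists, and the nearest regions ended 5175 bp before it and began 24358 bp after it. A region was called in all 10 lists in 38 of 45 cases, 84.4% (Clopper-Pearson interval 70.5% to 93.5%), against 32.1% of the rest (30.8% to 33.4%). The same 38 regions were those called in the 9 lists other than parental 4 h prexasertib.

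At the threshold of the deposited lists the number of histone regions called changed little with treatment, whereas that of the rest did. In parental cells 41 were called with DMSO, 43 with camptothecin, and 41, 42 and 44 at the 3 times of prexasertib. In the knockout these were 41, 42, and 42, 43 and 42. Of the rest, 43.8% were called with DMSO in parental cells, 60.9% with camptothecin, and 43.2%, 49.8% and 65% at the 3 times of prexasertib. In the knockout these were 55.4%, 52.5%, and 66.2%, 58.5% and 64.5%. After 2 h of prexasertib, 1 histone region of the parental line was called that was not with DMSO, beside 7.31% of the rest. After 6 h, 3 histone regions were called that were not with DMSO, while 24.7% of the rest were. With camptothecin 2 were, beside 20.3% of the rest, and after 4 h 1 was, beside 11.8%. In the knockout the 3 times of prexasertib added 1, 3 and 2 regions, beside 16.3%, 10.8% and 15% of the rest, and 1 only with camptothecin, beside 7.5%. Only 3 of the 45 were called in treated libraries alone, against 40.5% of the rest. A region called with DMSO cannot be gained, so these counts follow from how many were already called. At a −log10 q of 10 or more, 22 histone regions were called with DMSO and 37 after 6 h in parental cells, beside 22.4% and 36.3% of the rest. In the knockout these were 24 and 34, beside 29.5% and 35%. There the count with camptothecin was 24, as with DMSO.

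Among all regions called in the same library, histone regions were wide and high, yet low by the deposited fold. In parental cells with DMSO the median width of the longest peak was 783 bp (540 to 886) against 528 bp in the rest, and in the knockout with DMSO 837 bp (700 to 1040) against 563 bp. By width, the median histone region stood at the 66.8th to the 89.4th percentile of the regions called on chromosomes 1 and 6 in the same library, over the 10 libraries. By height it stood at the 66.7th to the 88th percentile. By the deposited fold, which divides the pileup by the local background, it stood at the 17.2th to the 32.1th percentile, and by −log10 q at the 49.8th to the 69.6th. The local background differed in the same way: its median over the histone regions was 4.28 times the genome-wide background in parental cells with DMSO and 4.88 in the knockout, against 2.41 and 3.01 over the 1690 other regions called in all 10 lists. Against regions also called in all 10 lists, the histone regions with DMSO stood out less. Their median heights were 19.9 against 18.4 in parental cells and 25.1 against 25.1 in the knockout. Their median widths were 793.5 against 623 bp and 841.5 against 738.5 bp. The other such regions that reach 1000 bp were higher, at 21.4 and 30.1. Regions with several summits, in 1 peak or over several peaks, made up 46.5% to 73.8% of the called histone regions by library and 18.8% to 25.5% of the rest.

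**Figure D1:**
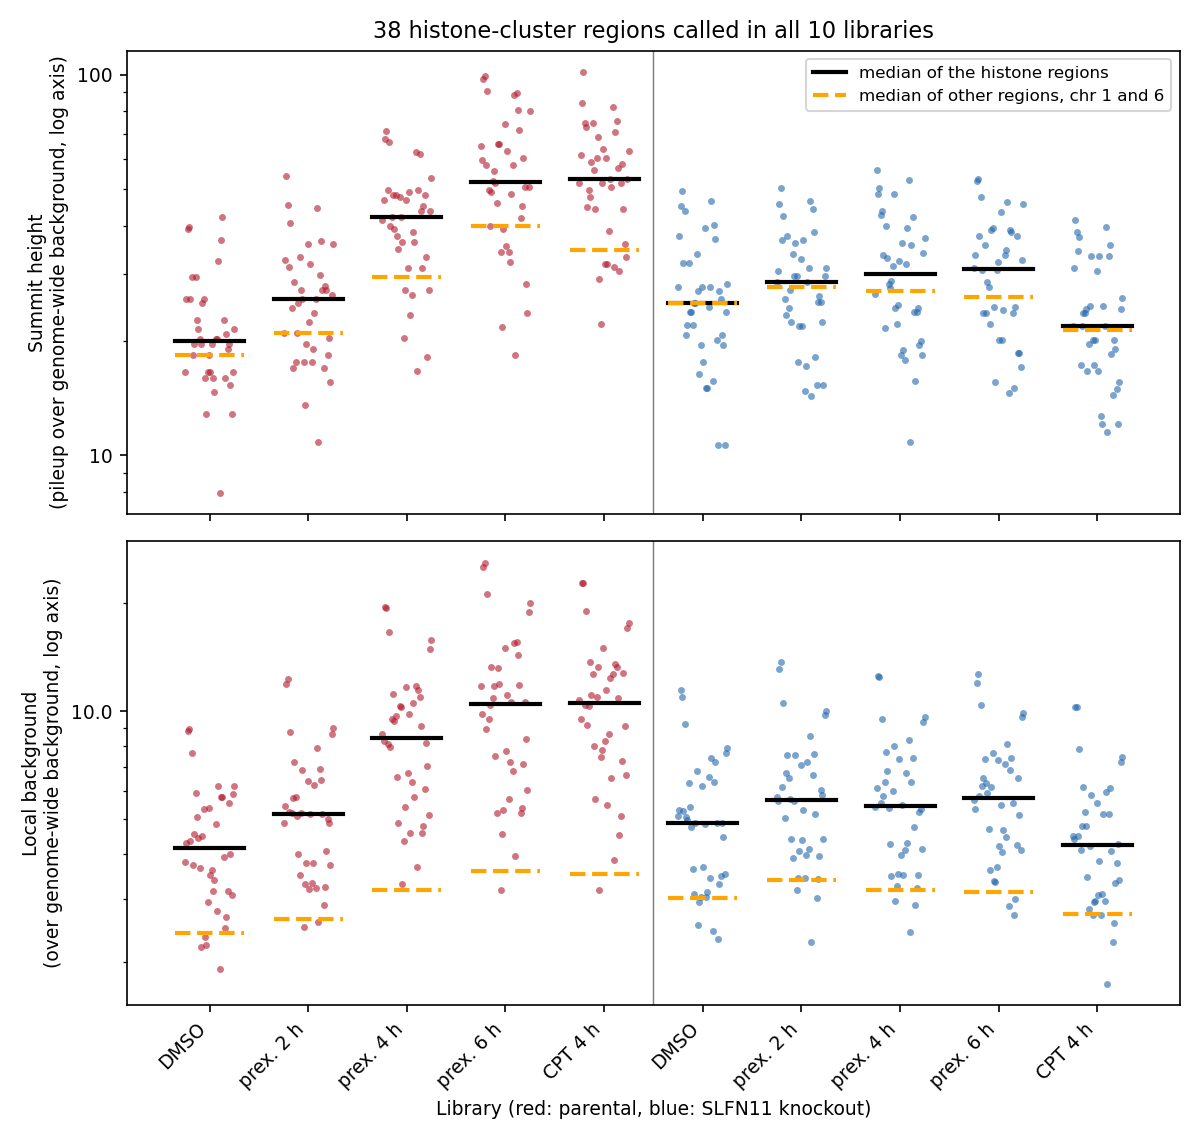
Height (top) and local background (bottom) of the 38 histone regions called in all 10 libraries, on log axes, in units of the genome-wide background pileup of each library; each point is a region, black lines are medians over them and dashed lines medians over the other regions of chromosomes 1 and 6 called in all 10 libraries. In parental cells the medians of height went from 19.9 with DMSO to 52.1 after 6 h of prexasertib and 53.3 with camptothecin, and in the knockout they stayed between 21.8 and 30.8.

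In parental cells both drugs went with higher summits across the histone clusters. The median height over the called histone regions was 19.6 with DMSO and 51.9 with camptothecin, and prexasertib gave 25 at 2 h, 40.7 at 4 h and 50.2 at 6 h. Taken region by region, the log2 change against DMSO had a median of 0.29 (0.15 to 0.41, n = 40 regions called in both lists) at 2 h, 0.92 (0.84 to 1.06, n = 41) at 4 h, 1.28 (1.21 to 1.39, n = 41) at 6 h and 1.34 (1.26 to 1.41, n = 41) with camptothecin. The last of these is a ratio of 2.54, and that at 6 h one of 2.43. All 41 were at least 1.5-fold higher after 6 h and with camptothecin, beside 69.6% and 66% of the rest. After 4 h 37 of 41 were, beside 49.6%, and after 2 h 6 of 40, beside 10%. Without division by the genome-wide background these counts were 41 after 6 h, beside 64.4%, 40 with camptothecin, beside 52.2%, 23 after 4 h, beside 23.2%, and 4 after 2 h, beside 5.19%.

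The rest of chromosomes 1 and 6 was higher too, by less. Its median log2 changes were 0.15, 0.58, 0.92 and 0.77 in the same order. The histone regions exceeded it by 0.15, 0.34, 0.36 and 0.57, and these differences between the groups of regions do not depend on how a library is scaled. The excess was largest with camptothecin, where the interval of the histone median, 1.26 to 1.41, lay above that of the rest, 0.76 to 0.80. The 885 other regions that reach 1000 bp and were called in all 10 lists, which are nearer to the histone regions in width, had medians of 0.18, 0.65, 1.03 and 0.85. Without division by the genome-wide background the histone medians were 0.15, 0.62, 1.18 and 1.17, and those of the rest 0, 0.28, 0.82 and 0.60.

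In the knockout the differences in height were small, and their size rested on the scaling. Its median height over the called histone regions was 24.5 with DMSO, 21 with camptothecin, and 26.7, 27.6 and 29.6 at the 3 times of prexasertib. The median log2 changes were 0.11 (0.03 to 0.19, n = 41) after 2 h, 0.23 (0.07 to 0.33, n = 40) after 4 h, 0.22 (0.10 to 0.33, n = 40) after 6 h and -0.23 (-0.32 to -0.02, n = 41) with camptothecin. At least 1.5-fold higher were 0, 2, 6 and 0 regions, beside 6.97%, 5.93%, 5.42% and 1.44% of the rest. With camptothecin 10 of 41 were higher, beside 28.1% of the rest, and 1 was lower by at least 1.5-fold, beside 12.8%. The rest had medians of 0.10, 0.07, 0.01 and -0.20, so that after 4 and 6 h the histone regions stood 0.16 and 0.21 above it. Without division by the background the histone medians were 0.51, 0.45, 0.54 and -0.10, and those of the rest 0.50, 0.29, 0.33 and -0.07. At least 1.5-fold higher were then 15, 12, 15 and 1 histone regions, beside 40.1%, 18.5%, 22.7% and 2.83% of the rest.

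**Figure D2:**
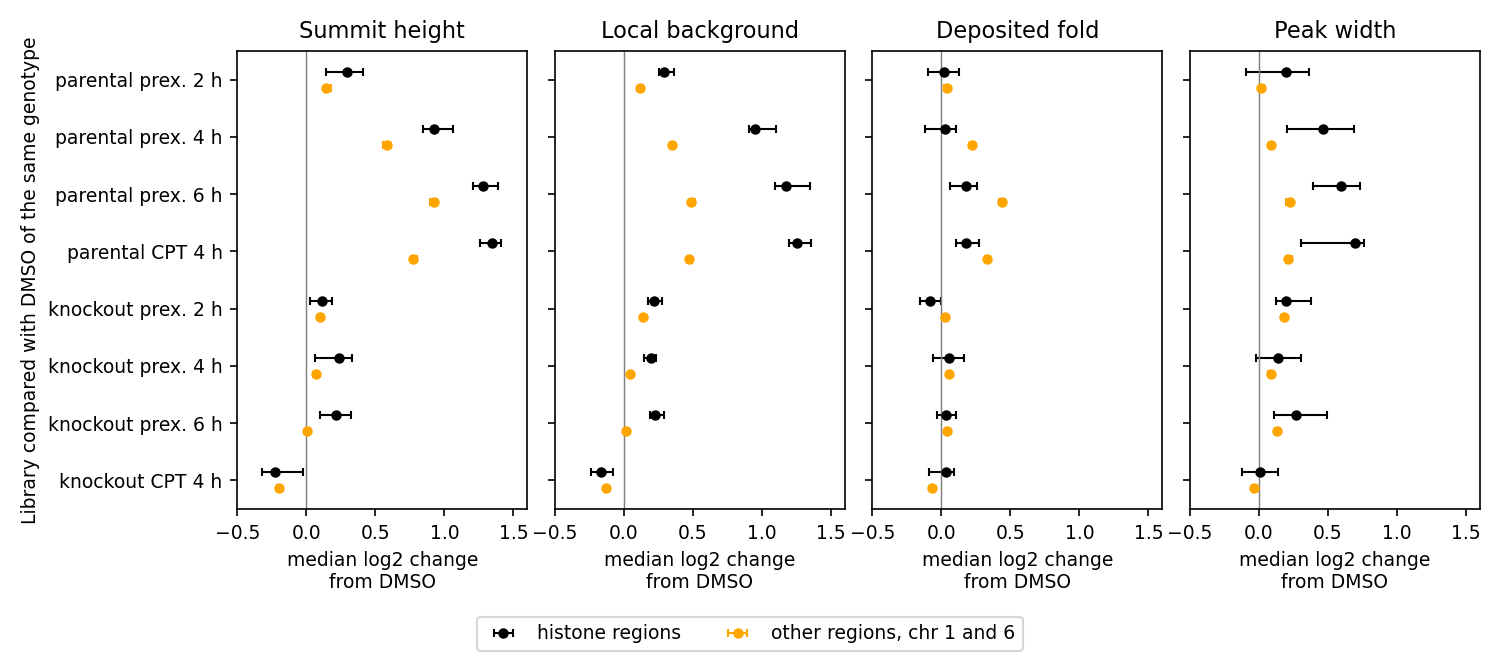
Median log2 change from DMSO of the same genotype in height, local background, deposited fold and width, one line per treated library, for the histone regions (black) and the other regions of chromosomes 1 and 6 (orange); bars are 95% order-statistic intervals over regions. In parental cells the histone regions lie to the right of the rest in height, local background and width and, after 4 and 6 h and with camptothecin, to the left of it in fold.

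The deposited fold gave another picture than the height. In parental cells the median log2 change of fold over the histone regions was 0.02 after 2 h, 0.02 after 4 h, 0.18 after 6 h and 0.18 with camptothecin, below the 0.04, 0.22, 0.44 and 0.33 of the rest. The local background was higher by about as much as the summits were: its median log2 change was 0.29, 0.95, 1.17 and 1.25, against 0.12, 0.35, 0.49 and 0.47 in the rest. At least 1.5-fold higher in local background were 40 of 41 regions both after 6 h and with camptothecin, beside 41.4% and 35.3% of the rest, and 38 of 41 after 4 h, beside 16.9%. The caller's window sizes are not stated in the sources used, and in these dense clusters the window around a summit can hold neighbouring peaks. How far that density carries the height, or the reverse, was not tested. In the knockout the local background changed by 0.22, 0.20, 0.22 and -0.16, against 0.14, 0.05, 0.02 and -0.13 in the rest, and the fold by -0.08, 0.06, 0.04 and 0.03.

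The −log10 q of the histone regions, a measure that grows with depth, was 10.2, 10.5, 17.4, 30.4 and 24.4 at the median in the parental libraries and 12.5, 17.2, 18.5, 20.6 and 11.7 in the knockout, each in the order DMSO, 2, 4 and 6 h of prexasertib, camptothecin. It was higher than with DMSO in 40 of 41 regions of the parental line after 6 h, beside 88.5% of the rest, and in 39 of 41 with camptothecin, beside 86.7%. The median difference was 19.5 after 6 h and 14.8 with camptothecin, and in the rest 16.4 and 10.5. Against wide regions alone, which had 23.8 and 15.2, the histone regions did not stand above in this measure.

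Peaks in the clusters were also wider in parental cells after 4 and 6 h of prexasertib and with camptothecin. Against a median width of 783 bp with DMSO, prexasertib gave 743, 948.5 and 1001 bp at its 3 times and camptothecin 1037 bp. The median log2 change was 0.60 (0.39 to 0.74) after 6 h and 0.70 (0.31 to 0.76) with camptothecin, against 0.22 and 0.21 in the rest. At least 1.5-fold wider were 21 of 41 after 6 h, beside 21.5% of the rest, and 23 of 41 with camptothecin, beside 21.4%. In the knockout the changes were 0.20, 0.14 and 0.27 after 2, 4 and 6 h and 0.01 with camptothecin, against 0.18, 0.09, 0.13 and -0.04 in the rest. There, 11 of 40 regions were at least 1.5-fold wider after 6 h, beside 15.4%. Height and local background were higher in the same libraries, and their part in the width was not tested.

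Peaks covered a larger share of the intervals than with DMSO in each treated library except the knockout with camptothecin. This share did not always follow the median width. The width was 743 bp after 2 h against 783 bp with DMSO in parental cells, and 771 bp after 4 h against 837 bp in the knockout. In parental cells the share was 6.76% with DMSO, 9.65% with camptothecin, and 7.16%, 8.6% and 9.51% at the 3 times of prexasertib. In the knockout it was 7.68%, 7.55%, and 8.84%, 8.27% and 9.48%. Over the rest of chromosomes 1 and 6, in the same order, it was 0.321%, 0.453%, and 0.317%, 0.367% and 0.463% in parental cells, and 0.436%, 0.408%, and 0.56%, 0.482% and 0.525% in the knockout. The rest thus went up by about the same factor as the clusters after 6 h and with camptothecin in parental cells. The knockout after 6 h thus had about the same share of the clusters under peaks as the parental line. Its summits were higher than with DMSO by a median log2 of 0.22, or 0.54 without division by the genome-wide background.

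**Figure D3:**
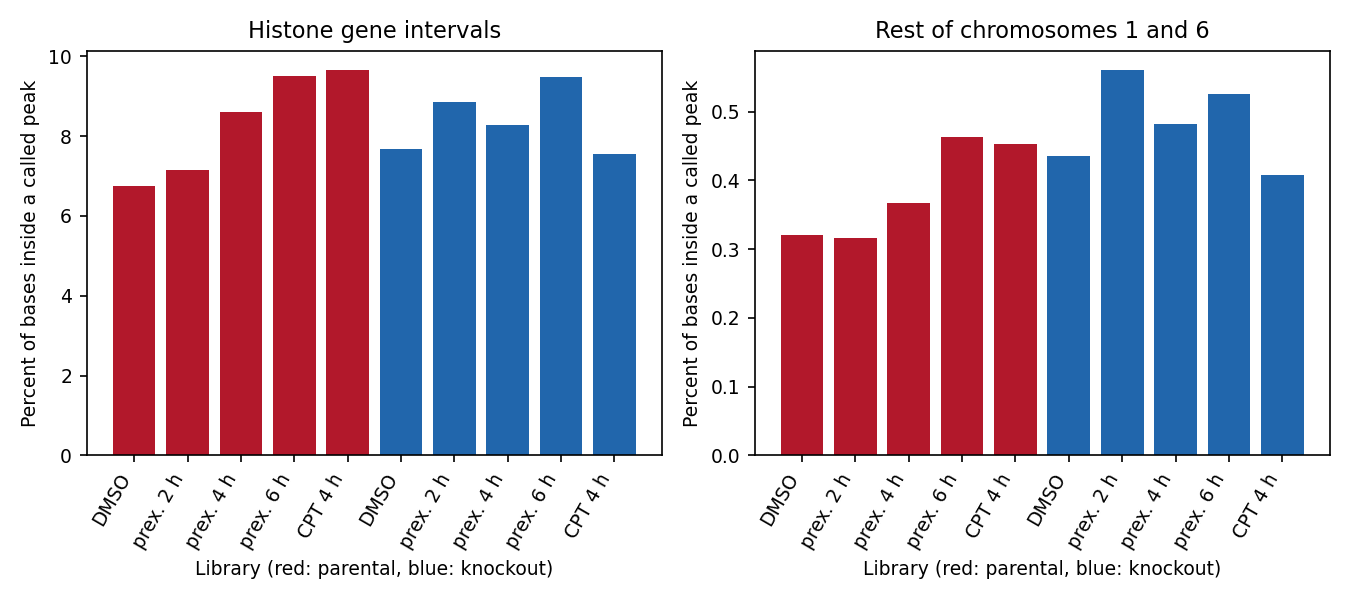
Percent of bases inside a called peak, by library, in the 5 histone intervals (left) and in the rest of chromosomes 1 and 6 (right); bars start at 0 and the scales differ. In parental cells the histone share goes from 6.76% with DMSO to 9.65% with camptothecin, and the knockout with camptothecin, at 7.55%, lies just under its DMSO library at 7.68%.

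Among the 38 called in all 10 lists, the highest summit was in the parental 6 h library in 20, 52.6% beside 57.5% of the rest, and in the parental camptothecin library in 16, 42.1% beside 21.2%. The other 2 were highest after 4 h, 1 in each line. The lowest was in the parental DMSO library in 18, 47.4% beside 49.1%, and in the knockout camptothecin library in 13, 34.2% beside 16%. The shares of the parental 6 h and DMSO libraries were thus near those of the rest. Heights went up in the order DMSO, 2, 4, 6 h in 27 of 38 regions of the parental line, 71.1% beside 52.8% of the rest, and in 8 of 38 of the knockout, 21.1% beside 5.28%. The 3 parental libraries of 4 h, 6 h and camptothecin all stood above the other 7 in 31 of 38 regions, 81.6% beside 35.9%. For the local background that held in 37 of 38, 97.4% beside 22%. Without division by the genome-wide background the order of times held in 22 regions of the parental line and 5 of the knockout, beside 35.1% and 4.74% of the rest, and the 3 parental libraries stood above the other 7 in only 7 of 38, 18.4% beside 1.54%.

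Set directly against each other, the lines changed place between DMSO and the later treatments. With DMSO the parental summits were lower, by a median log2 ratio of -0.32 (-0.40 to -0.15, n = 40) beside -0.38 in the rest, and 6 of 40 were higher, beside 16.6% of the rest. After 2 h the ratio was -0.08, beside -0.34. After 4 h it was 0.48, beside 0.10, after 6 h 0.81, beside 0.48, and with camptothecin 1.20, beside 0.58. All 41 regions were higher in the parental line after 6 h and all 42 with camptothecin, beside 79.2% and 86.8% of the rest, and after 4 h 36 of 41, beside 60.7%. The value at 4 h was 0 without division by the genome-wide background, so its direction rests on that scaling, and those at 6 h and with camptothecin were then 0.42 and 0.93.

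The difference between the lines in their change from DMSO was larger in the clusters than in the rest. Per region, the parental log2 change of height exceeded that of the knockout by a median of 0.18 (0.01 to 0.37) after 2 h, 0.63 (0.43 to 0.85) after 4 h, 1.12 (0.93 to 1.25) after 6 h and 1.54 (1.39 to 1.66) with camptothecin. The rest had 0.03, 0.47, 0.89 and 1.00. The parental change was the larger in 39 of 39 regions after 4 h, beside 83.4% of the rest, in 39 of 39 after 6 h, beside 90.1%, and in 40 of 40 with camptothecin, beside 94.1%. Without division by the genome-wide background the difference was -0.37 (-0.53 to -0.18) after 2 h, larger in the parental line in 7 of 40 regions, beside 12.6%, and 0.12 (-0.09 to 0.33) after 4 h, in 26 of 39, beside 45.7%. The direction at 2 h and the size at 4 h thus rest on the scaling. After 6 h it was 0.70, in 38 of 39, beside 77.3%, and with camptothecin 1.24, in 40 of 40, beside 86.8%, where the rest had -0.51, -0.05, 0.47 and 0.70 over the 4 treatments. By fold the same difference was 0.10, -0.12, 0.12 and 0.16, where the rest had 0.01, 0.14, 0.41 and 0.40. For the local background it was 0.11, 0.83, 0.99 and 1.49 in the clusters and -0.03, 0.28, 0.47 and 0.63 in the rest.

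At the shared time of 4 h, the drugs stood in opposite order in the 2 lines. In parental cells the summits stood lower under prexasertib than under camptothecin, with a log2 ratio whose median was -0.38 (-0.47 to -0.29, n = 42) beside -0.21 in the rest, in 39 of 42 regions, where 25.6% of the rest were higher. In the knockout they were higher with prexasertib, by 0.36 (0.24 to 0.48, n = 41) beside 0.28, in 39 of 41 regions, beside 78.1%. The parental 4 h prexasertib library is the one with truncated raw reads, and the sources used do not say whether its peak list came from the whole reads.

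**Figure D4:**
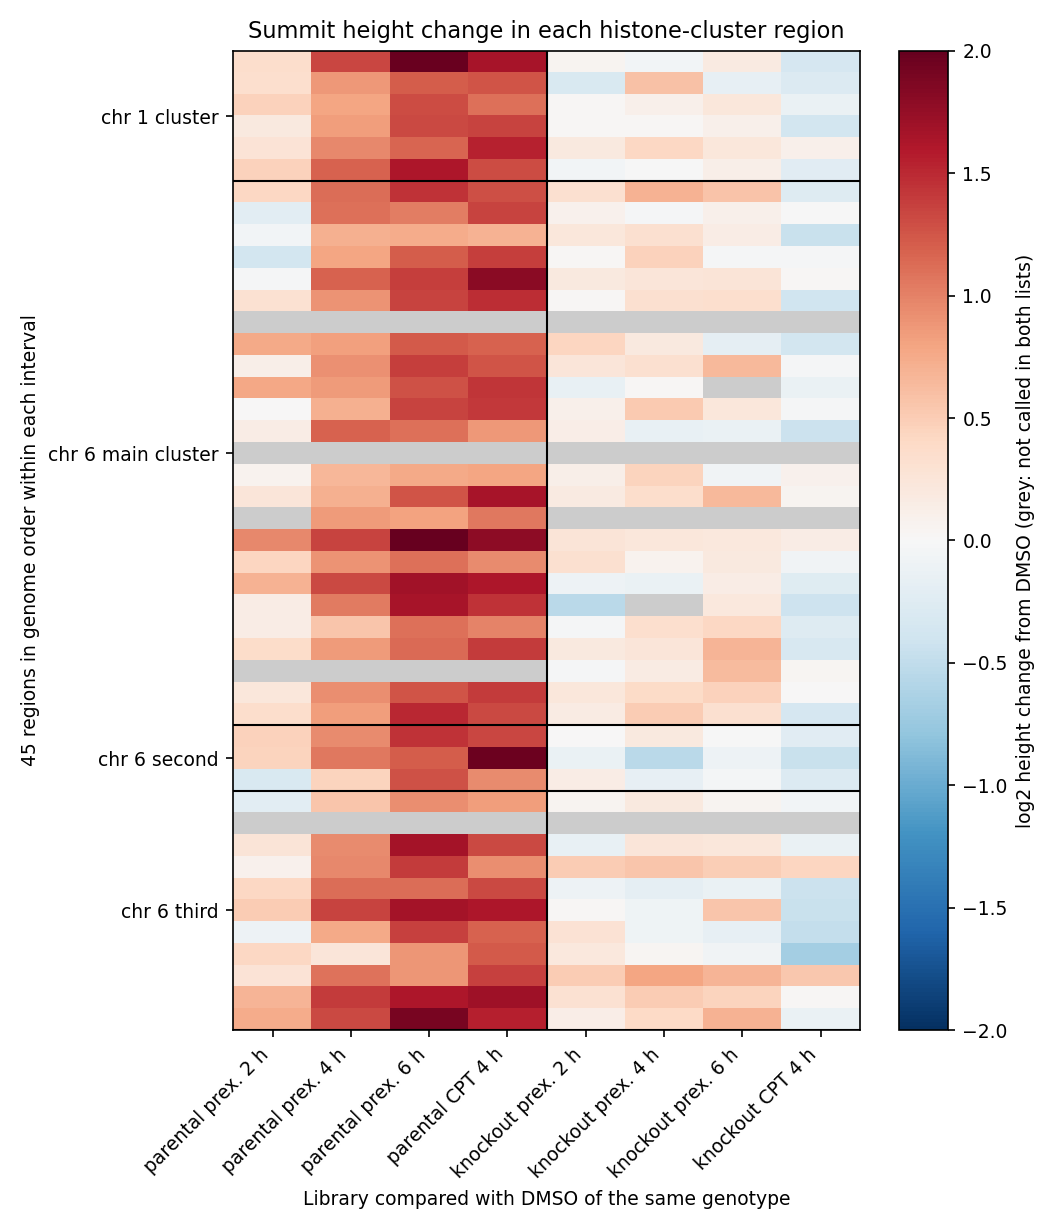
Log2 change of height from DMSO of the same genotype for each of the 45 histone regions, in genome order within each interval, with treated libraries as columns; red is higher, blue lower, and grey means not called in both lists. The parental 6 h and camptothecin columns are red in all 41 regions with a value, between 0.74 and 2.01 and between 0.70 and 1.97, and the knockout camptothecin column is pale blue in most.

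All 4 intervals with peaks showed the parental change. At 6 h of prexasertib the height was higher by a median log2 of 1.26 over 22 regions of the first chromosome 6 interval, 1.28 over the 3 of the second, 1.38 over 10 of the third and 1.31 over the 6 on chromosome 1. With camptothecin these were 1.36, 1.34, 1.32 and 1.33. In the knockout after 6 h they were 0.23, -0.04, 0.34 and 0.15, and with camptothecin -0.10, -0.27, -0.13 and -0.25. The intervals thus differed little in the parental line, and the medians of all 4 were below 0 in the knockout with camptothecin.

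The chromosome 1 interval held the region with the highest summit of the 10 libraries and the one with the widest peak, though not in each library: in parental cells with DMSO the highest region was in the third chromosome 6 interval and the widest in the first. At chr1:149822225-149824995 the height in parental cells was 39.8, 45.4, 70.9, 99.1 and 102, listed here and below as DMSO, 2, 4 and 6 h of prexasertib, camptothecin, and in the knockout 49.5, 50.5, 50.2, 53.2 and 38.5. Its longest peak was 892 bp with DMSO in parental cells and 1378, 2354, 2703 and 2548 bp after the treatments, and in the knockout 1387, 2381, 2751, 2633 and 2371 bp. So the peak was wide in 4 treated knockout libraries in which the height, divided by the genome-wide background, was not higher by more than a log2 of 0.10. Not divided, the knockout pileup was 79 with DMSO and 106 after both 2 and 6 h, so for these times the statement rests on the scaling. At the neighbouring chr1:149811951-149814781 heights were 39.2, 54.2, 67.9, 97.1 and 84.4 in the parental libraries and 45.2, 45.7, 48.6, 52.7 and 41.4 in the knockout. Over the 10 libraries the folds of this pair were 3.39 to 4.36, on local backgrounds of 8.82 to 25.9. At chr1:149831876-149833419 heights were 25.7, 31.1, 49.8, 57.7 and 74.7 in parental cells and 32, 36.7, 42.7, 37.6 and 34.5 in the knockout. At chr1:149803557-149805088 they were 25.7, 32.5, 46.8, 59.7 and 61.6, and 37.6, 30.5, 56.2, 33.6 and 31.0. There the knockout summit at 4 h stood above the parental one of the same time.

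In the first chromosome 6 interval the largest parental change after 6 h was at chr6:26198830-26200185. Its heights were 18.4, 35.9, 46.8, 74.1 and 63.6 in parental cells and 27.6, 32.9, 32.4, 32.1 and 30.5 in the knockout. The change after 6 h in parental cells was a log2 of 2.01, the largest of the 41, and the knockout heights stayed within 27.6 to 32.9. At chr6:26216447-26217877, which had the highest mean −log10 q of the interval, heights were 19.6, 31.8, 49, 63 and 60.2 in parental cells and 39.5, 36.7, 36.2, 43.6 and 33.3 in the knockout. With DMSO this region differed most between the lines, with a log2 ratio of parental over knockout of -1.01. At chr6:26284867-26286199 they were 20.2, 25.7, 36.2, 57.7 and 50.5, and 27.6, 31.0, 39.4, 34.6 and 21.8, so here the knockout at 4 h was above the parental library of that time. Over all intervals 5 of 41 regions were higher in the knockout at 4 h. Without division by the genome-wide background 18 were, and 20 were higher in parental cells. At chr6:26103914-26104927 heights were 19.6, 33.2, 34.7, 45.9 and 44.3, and 25.1, 33.8, 28.6, 22.1 and 19.5.

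Other regions of this interval were chosen for their width. At chr6:26033289-26034236 the longest peak was 354, 427, 572, 813 and 725 bp in parental cells and 576, 712, 576, 737 and 475 bp in the knockout. At chr6:26043586-26046197 it was 540, 691, 790, 993 and 881 bp, and 694, 1022, 589, 2180 and 637 bp, where the value of 2180 bp stands alone. The height there was 28.6 in that library, close to those after 2 and 4 h. At chr6:26171726-26173131 the knockout was the wider and the higher with DMSO, at 837 against 496 bp and a height of 27 against 15.9. At chr6:26156469-26157179, a weak region with folds of 2.42 to 3.42 that was not called in the knockout after 6 h, the peak was 211 bp with DMSO in the knockout and 711 bp with camptothecin at heights of 20.7 and 19. The last shows a width of the longest peak that moved without its summit. A list can split a region into several peaks. In the knockout this held for 8 of 41 histone regions with DMSO and 7 of 42 with camptothecin, beside 41 of 2921 and 34 of 2768 of the rest. Its part in this width was not tested.

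In the second chromosome 6 interval, chr6:27099712-27101308 had heights of 32.4, 44.7, 62.6, 88.6 and 82.3 in parental cells and 46.4, 46.7, 52.9, 46.1 and 39.7 in the knockout. At chr6:27113721-27115349 they were 36.7, 29.8, 49.8, 89.2 and 70.6, and 40.1, 44.3, 35.7, 39.1 and 33.3. The third region, chr6:27106928-27107903, was the lowest of all with DMSO in parental cells, at 7.96, followed by 10.8, 16.6, 18.4 and 31.1, and 15.7, 14.3, 10.8, 14.5 and 11.5 in the knockout. Its parental change with camptothecin, a log2 of 1.97 on a pileup that started at 13, was the largest with that drug.

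In the third chromosome 6 interval the highest region with DMSO was chr6:27775099-27776439, with heights of 42.2, 36.6, 61.9, 80.7 and 75.4 in parental cells and 37, 38.6, 42.1, 38.6 and 35.6 in the knockout. It was 1 of 6 regions that were higher in the parental line with DMSO. At chr6:27805627-27806808 heights were 19, 27.1, 48.3, 60.4 and 58.1, and 25.7, 26.2, 24.3, 37.6 and 19. At chr6:27798554-27799465 they were 20.8, 27.8, 45.3, 45.3 and 51.9, and 27, 25.2, 23.8, 24.6 and 20.1. The knockout libraries of the last stayed within 20.1 to 27.

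A pair of regions in the third interval went against the group in the knockout. At chr6:27840539-27841680 heights were 12.9, 15.6, 27.2, 23.6 and 33.2 in parental cells and 10.7, 15.2, 18.4, 17.1 and 15.5 in the knockout, where the camptothecin library was a log2 of 0.54 above DMSO. At chr6:27791586-27792779 they were 15.9, 16.9, 30.9, 42 and 30.4, and 10.7, 15.2, 15.7, 15 and 14.4, and the longest peak of the knockout went from 204 bp with DMSO to 813, 1004, 682 and 727 bp. Both start from a knockout DMSO height of 10.7, a pileup of 17, and both had a deposited −log10 q of under 5 there, 2.18 and 4.51.

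The 7 regions not called in every list include the weakest. A peak at chr6:26087733-26087932 was called in the parental 6 h library alone, at a height of 8.53 and 200 bp. One at chr6:26173303-26173548 was called in the parental 6 h and the knockout 4 h libraries, at 11.2 and 9.72. One at chr6:27777747-27778090 was called with camptothecin in the parental line, at 38.7, and after 4 and 6 h of prexasertib in the knockout, at 23.2 and 21.1, each over a local background of 9.19 or more and with a fold of 2.02 to 2.44. These 3 are those of treated libraries alone. At chr6:26251522-26252230 the parental DMSO library had no call, and heights were 14.9, 16.6, 33.5 and 37.4 after the treatments and 10.7, 10.5, 11.9, 16.5 and 10.9 in the knockout. The region chr6:26197182-26197676 was missing from the parental 2 h and the knockout DMSO lists, and chr6:26223368-26224652 from the knockout 4 h list. These 2 were chosen to complete the account of the 7. No region was called in every list of 1 line and in none of the other.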

How the data were processed

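ATAC-seq was made from 10 libraries, 1 per group. Per the submitters' processing notes, the build was hg19 and the tools were MACS2 2.1.2, BWA 0.7.17, Trimmomatic 0.39, SAMtools 1.8, Trim Galore 0.6.2 and Picard 2.9.2, with no role or order given. The parameters, the treatment of duplicates and any shift for the transposase are not stated in the sources used. The authors deposited narrowPeak lists, 1 per library. The lists have no header line, and by the columns of that format the deposited values are an integer score, a fold enrichment over local background, the −log10 p-value, the −log10 q-value and the start, end and summit. The deposited score was 10 times −log10 q in 99.9885% to 100% of summits, and the lowest deposited −log10 q was 2.00004 to 2.00342 by library.

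From these, peaks sharing at least 1 base were merged across lists. Pileups were searched among whole numbers from fold and p-value, with fold as pileup plus 1 over local background plus 1. The best whole pileup gave a −log10 p within 0.001 of the deposited one in 99.3177% to 99.5876% of summits. Other summits were left without a pileup. Width is that of the longest peak of a region. Fold, height, local background and width were compared as log2 ratios over regions called in both lists, and −log10 q as differences. Medians have order-statistic intervals and shares Clopper-Pearson intervals. A region was counted as differing past 1.5-fold. Regions were named by a rule: the 3 with the highest mean −log10 q of each interval, the 3 with the largest width change after 6 h of prexasertib and with camptothecin in each line, the 3 that differed most in height between the lines with DMSO, and those of treated lists alone. The members and lists were chosen with earlier results of these data known, and the recovered height, the local background, the threshold of −log10 q 10 for heights, the comparison with regions of 1000 bp or more, and the counts and orders of pileups not divided by the background were added after values were seen. The recovery of pileups and the merging of peaks were tested on simulated data. Pileups were simulated with the same formula that recovers them and with the local background held fixed. The scaling by the genome-wide background, changes of local background and the comparison with the rest were not covered. Histone control genes outside the clusters and cell type markers were not analysed here. Python 3.11.15, pandas 2.3.3, numpy 2.4.6, SciPy 1.17.1 and matplotlib 3.10.9 were used.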

Additional observations from a re-analysis of the deposited data

Results flagged for a closer look

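For 4 measures the median change over the histone regions had opposite signs in the 2 lines under the same treatment, and the difference was not tested, with 1 library per group. With camptothecin the median log2 change of height was 1.34 in parental cells and -0.23 in the knockout, that of the local background was 1.25 and -0.16, and the median difference of −log10 q was 14.8 and -0.45. For the deposited fold at 2 h of prexasertib it was 0.017 and -0.080. The interval over regions spans 0 for the parental fold, -0.099 to 0.13, and for the −log10 q of the knockout, -2.17 to 1.35 with 20 of 41 higher, so the sign of neither is set. The rest of chromosomes 1 and 6 also had opposite signs with camptothecin. Its parental and knockout medians were 0.77 and -0.20 for height, 0.47 and -0.13 for local background, and 10.5 and -1.23 for −log10 q. The opposite signs with that drug were thus not particular to the histone regions. For the fold at 2 h the rest had 0.039 and 0.027, with no change of sign.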

How the results depend on the processing

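No paired analysis was possible because each group has 1 library. For the same reason no library could be left out within a group, and depth limits single regions. Of 593 alternative values, 495 kept their direction and size, 90 moved and 8 reversed. Leaving out the chromosome 1 interval with peaks, taking chromosomes 1 to 22 and X as the rest, or using the summed width moved none. These settings covered 166, 65 and 13 values. Leaving out the parental 4 h list moved none but covered only 1 value. With fold in place of height 1 value kept, 9 moved and 3 reversed. For pileup not divided by the background these counts were 3, 9 and 1, and for a reciprocal overlap of 50% 0, 26 and 0. For a −log10 q of 10 or more they were 77, 24 and 0. Over regions called in all 10 lists they were 120, 9 and 1, and against regions of 1000 bp or more 49, 13 and 3. Naming regions by an hg19 annotation was not run. For values below with no stated reason, the cause was not tested.

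Keeping only peaks of −log10 q 10 or more leaves fewer peaks by construction. In the order DMSO, 2, 4 and 6 h, camptothecin, histone regions called were then 22, 22, 33, 37 and 39 in parental cells. Beside them stood 22.4%, 22.5%, 28.3%, 36.3% and 34.1% of the rest. In the knockout they were 24, 34, 32, 34 and 24, beside 29.5%, 37.5%, 33%, 35% and 27.3%. Called only after treatment were 4, 11, 15 and 17 in parental cells (2, 4, 6 h, camptothecin), of 45, beside 3.57%, 7.48%, 14.9% and 12.5% of the rest, and 10, 9, 11 and 3 in the knockout, beside 9.45%, 5.41%, 7.44% and 2.79%. Called only with DMSO were 4 against 2 h in parental cells and 3 against camptothecin in the knockout, beside 3.47% and 4.99%. Called in the parental line alone were 2 with DMSO, 1 at 2 h, 4 at 4 h and 16 with camptothecin, beside 1.27%, 0.399%, 2.05% and 8.83%, and in the knockout alone 4, 13, 0 (at 6 h) and 1 (camptothecin), beside 8.35%, 15.5%, 4.57% and 1.99%. The −log10 q of parental over knockout differed by -4.74 with DMSO and 15.8 with camptothecin.

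With a reciprocal overlap of 50%, which splits regions by construction, the counts called only after treatment and only with DMSO were 8 and 8, 5 and 4, 11 and 8, and 12 and 10 in parental cells, and 8 and 7, 7 and 5, 9 and 8, and 10 and 9 in the knockout, where the rest ran from 9.13% to 30.4%. Those of the parental line alone and the knockout alone were 6 and 6, 10 and 11, 3 and 4, 9 and 7, and 9 and 8, from DMSO over the 3 prexasertib times to camptothecin, where the rest ran from 9.38% to 33.2%. The number of histone regions after splitting is not given here, so these counts cannot be set against the shares of the rest.

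With fold in place of height, which divides by the local background, parental log2 changes were 0.017, 0.024, 0.18 and 0.18, and those of the knockout -0.080, 0.059, 0.037 and 0.033, the first and last of which reversed. Parental over knockout was -0.075 with DMSO, -0.14 at 4 h (reversed), 0.026 at 6 h and 0.10 with camptothecin. With pileup not divided by the background, values were 0.62, 1.18 and 1.17 in parental cells (4 h, 6 h, camptothecin) and 0.51, 0.45 and 0.54 in the knockout (2, 4, 6 h), and parental over knockout was -0.58, 0 (no direction left), 0.42 and 0.93.

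Over regions called in all 10 lists, histone regions minus the rest gave a height of 0.28 in parental cells at 6 h, 0.22 for parental over knockout at 6 h, and a local background of 0.71 with camptothecin in parental cells and 0.81 for parental over knockout. For −log10 q they gave -2.30 in parental cells at 6 h, -4.20 and 0.00191 in the knockout at 2 and 6 h, and 2.93, -0.602 (reversed) and 2.68 for parental over knockout with DMSO, at 6 h and with camptothecin.

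Against regions of 1000 bp or more, the height difference was 0.26 at 6 h and 0.48 with camptothecin in parental cells, and the local background 0.55, 0.59 and 0.69 at 4 h, 6 h and with camptothecin, and 0.79 for parental over knockout with camptothecin. The −log10 q differences were -2.58, -4.29 and -0.367 (reversed) in parental cells at 4 h, 6 h and with camptothecin, -5.06 and -0.962 (reversed) in the knockout at 2 and 6 h, and 4.60, 8.27, 4.05, -1.42 (reversed) and 2.50 for parental over knockout with DMSO, at 2, 4 and 6 h and with camptothecin.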

Other observations

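The order of libraries by fold was not that by height. Among the 38 histone regions called in all 10 lists, the 3 parental libraries of 4 h, 6 h and camptothecin all stood above the other 7 in fold in 2, 5.26% beside 17.6% of the rest, where height gave 31. The highest fold was in the parental 6 h library in 5, 13.2% beside 53.2% of the rest, in the parental camptothecin library in 8, 21.1% beside 19.5%, and in the knockout 4 h library in 8, 21.1% beside 5.8%.

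The heights of the 38 regions differed among themselves by a similar factor in each library. The highest was 3.53 to 5.39 times the lowest, and the SD of log2 height was 0.49 to 0.60.

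Several summits, in 1 peak or over several peaks, were called in 22, 26, 31, 31 and 31 histone regions of the parental libraries. In the knockout they were in 28, 20, 20, 26 and 20, each in the order DMSO, 2, 4 and 6 h of prexasertib, camptothecin. As shares of the called regions the parental values were 53.7%, 63.4%, 73.8%, 70.5% and 72.1%, beside 20.1%, 18.8%, 23%, 25.5% and 22.3% of the rest. Those of the knockout were 68.3%, 47.6%, 46.5%, 61.9% and 47.6%, beside 21.8%, 19.9%, 22.3%, 21.3% and 19.6%.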
